A study of Rattus norvegicus with 156 samples.

Results

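Cnmd, Col2a1, Nell1, Krt5, Mt3, Fez1, Cmbl and Serpina1 are 8 genes whose array signal was far lower in the sciatic nerve of rats with tied spinal nerves than in the nerve of rats without. They were chosen by their signal in that comparison, ligated against unligated nerve of the operated side, so the difference there is given as a description and carries no test. They are 8 of the 10969 genes with a probe set of their own on the arrays. Every probe set annotated to 1 of the 8 symbols was taken, which gave 11 probe sets of the 26202 on the arrays that are not controls: 10 on array A, 1 on array B (Cmbl) and 0 on array C. Col2a1 had 2 probe sets and Serpina1 had 3. In each nerve pool the second Col2a1 probe set and the other 2 Serpina1 probe sets stayed near the floor of the array, at signals of at most 6.07 and 3.27. Values below are those of the brightest probe set of each gene unless another is named.

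The rats had the L5 and L6 spinal nerves of 1 side ligated (spinal nerve ligation, SNL), a model of neuropathic pain, and tissue was taken 19 to 21 days later. The groups were naive rats with vehicle, naive rats with gabapentin, sham-operated rats with vehicle (nerves exposed, not tied), SNL rats with vehicle and SNL rats with gabapentin. Gabapentin, a drug used against neuropathic pain, was injected at 100 mg/kg per day for 7 days, and the other groups received saline. The sources used here do not give strain or age. SNL rats entered only if the paw of the ligated side had become sensitive to touch by days 12 to 14, so the ligated groups are selected animals. RNA came from dorsal root ganglia (DRG, where sensory neuron cell bodies sit) of levels L4, L5 and L6, from mid-thigh sciatic nerve and from divided spinal cord of each side, and from whole brain. Each of the 52 RNA pools held 4 to 6 rats of 1 group and 1 tissue and was hybridised to 3 arrays. With 1 pool per group and tissue, the SNL and SNL with gabapentin pools were set together as ligated, against naive, naive with gabapentin and sham as unligated, and p-values measure the spread between these pools. The naive contralateral L6 DRG, the naive with gabapentin contralateral L5 DRG and the SNL contralateral nerve were not analysed here. Both ligated groups had surgery, while only sham did among the unligated ones.

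The genes come from different fields of biology. Cnmd encodes chondromodulin, a glycoprotein of cartilage that inhibits blood vessel growth, and Col2a1 encodes type II collagen, the main fibrillar collagen of cartilage. Nell1 encodes a secreted protein that promotes bone formation and is also made in neural tissue. Krt5 encodes an intermediate filament protein of basal epithelial cells. Mt3 encodes a metal-binding metallothionein known for its abundance in brain, and Fez1 encodes an adaptor that links cargo to kinesin motors in axons. Cmbl encodes a cytosolic hydrolase, and Serpina1 encodes alpha-1-antitrypsin, a protease inhibitor made chiefly by liver. A peripheral nerve holds axons, Schwann cells that wrap them, and connective tissue sheaths, and axons beyond a tied spinal nerve degenerate.

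Upstream sequences from RefSeq (assembly GRCr8) were at hand for 6 of the 8 genes. They are shown for Mt3 and Krt5, which held matches to a metal response element core, and for Serpina1, whose direction of change differed between nerve and ganglion. Each run is the 250 bases before the gene's annotated start, 5′ to 3′, and capitals mark matches to the TATA box (TATAAA) or the metal response element core (TGCGCNC or TGCACNC) on either strand.
Mt3, chr19:10856081-10856330, strand -: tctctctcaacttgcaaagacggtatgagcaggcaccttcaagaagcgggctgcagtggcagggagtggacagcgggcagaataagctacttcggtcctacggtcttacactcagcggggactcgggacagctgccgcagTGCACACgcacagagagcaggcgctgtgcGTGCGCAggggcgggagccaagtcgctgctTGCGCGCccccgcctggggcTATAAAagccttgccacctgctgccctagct
Krt5, chr7:134730570-134730819, strand -: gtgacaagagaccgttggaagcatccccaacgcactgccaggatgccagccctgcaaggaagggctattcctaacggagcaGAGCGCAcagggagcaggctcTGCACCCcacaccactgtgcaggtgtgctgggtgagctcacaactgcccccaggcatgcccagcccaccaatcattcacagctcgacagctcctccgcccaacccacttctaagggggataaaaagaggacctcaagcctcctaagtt
Serpina1, chr6:128653126-128653375, strand -: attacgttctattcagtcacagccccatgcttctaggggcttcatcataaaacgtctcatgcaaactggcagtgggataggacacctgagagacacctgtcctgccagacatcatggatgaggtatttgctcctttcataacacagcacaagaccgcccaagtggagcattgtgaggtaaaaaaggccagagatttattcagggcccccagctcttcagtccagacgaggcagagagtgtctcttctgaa

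The Mt3 promoter held a TATA box beginning 31 bases before the start and 3 metal response element cores, beginning 110, 81 and 51 bases before it. The Krt5 promoter held 2 such cores and no TATAAA. The Serpina1, Nell1, Fez1 and Cmbl promoters held neither. Over 33469 promoters of the same length, 12.9% held a TATA box and 20.6% held a metal response element core. The cyclic AMP response element (CRE, TGACGTCA, in 1.59% of promoters) and its core (TGACG, in 18.2%, a part of the full element) were also searched on both strands. The full element was in none of the 6, and the core was in Fez1 only. The 4 motifs were chosen after the sequences had been seen. A match says only that these letters are present.

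In nerve of the ligated side, all 8 genes were low in both ligated pools and high in all 3 unligated pools, the contrast that chose them. Over all probe sets tested 4.87% passed limma's test there in either direction, which is a different measure. The share of all probe sets with pools separated in this way was not counted. Signals are quantile normalised array intensities in arbitrary units, and probe sets of different genes are not compared with each other. Cnmd read 1060 in naive, 945 in naive with gabapentin and 893 in sham, and 100 in SNL and 143 in SNL with gabapentin. The unligated mean of Cnmd was 965 ± 84.2 (SD, n = 3) and the ligated mean 121.7 ± 30.2 (SD, n = 2). Col2a1 read 839, 753 and 490 in the same unligated order, against 67.1 in SNL and 129 in SNL with gabapentin. The lowest unligated value, in sham, was still well above both ligated values for each of these cartilage genes.

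Mt3 read 1600, 1150 and 1180 in naive, naive with gabapentin and sham, and 184 and 188 in SNL and SNL with gabapentin. Fez1 read 422, 409 and 284 without ligation, and 49.6 and 61.2 with it. For both, the ligated pools lay close together and far below the unligated ones. These are the members best known from neurons and brain.

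Nell1 was near the floor of the array in ligated nerve, at 3.14 in SNL and 3.56 in SNL with gabapentin, against 37.1, 77.5 and 68.5 in naive, naive with gabapentin and sham. Krt5 read 39.7, 53.9 and 47.7, against 1.88 and 2.05. Cmbl read 52.7, 31 and 34.2, against 1.38 and 2.35. In each of these 3 genes the ligated signals lay under the pseudocount that was added before taking logs (5.9 on array A and 4.6 on array B), so the size of the difference is set by that choice. Serpina1 read 54.3, 95.6 and 48.6 without ligation, against 9.46 and 4.6 with it, again with no overlap. Adding 1 or 32 in place of those pseudocounts gave log2 differences of -3.77 or -1.11 for Nell1, -3.89 or -0.94 for Krt5, -3.66 or -0.84 for Cmbl and -3.15 or -1.09 for Serpina1.

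On the log2 scale of signal plus pseudocount, ligated minus unligated was -3.19 for Cnmd, -3.05 for Mt3, -2.98 for Col2a1, -2.75 for Fez1, -2.55 for Nell1, -2.45 for Cmbl, -2.40 for Krt5 and -2.31 for Serpina1. The SD of log2 values within groups ran from 0.16 (Krt5) to 0.56 (Col2a1). Their median was -2.65, against 0.02 over all 16896 probe sets tested. Of those probe sets, 2.62% passed as lower and 2.25% as higher (limma, Benjamini-Hochberg adjusted p under 0.05), which stands here as background to the choice of genes only. Higher calls were 46.2% of all calls, 70.7% with the scaling as deposited, which moved the all-gene median by 0.31, and 37.9% with median scaling. The remaining 3 probe sets of Col2a1 and Serpina1 overlapped between ligated and unligated pools. In pooled tissue, fewer cells of a type and less RNA per cell cannot be told apart.

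**Figure D1:**
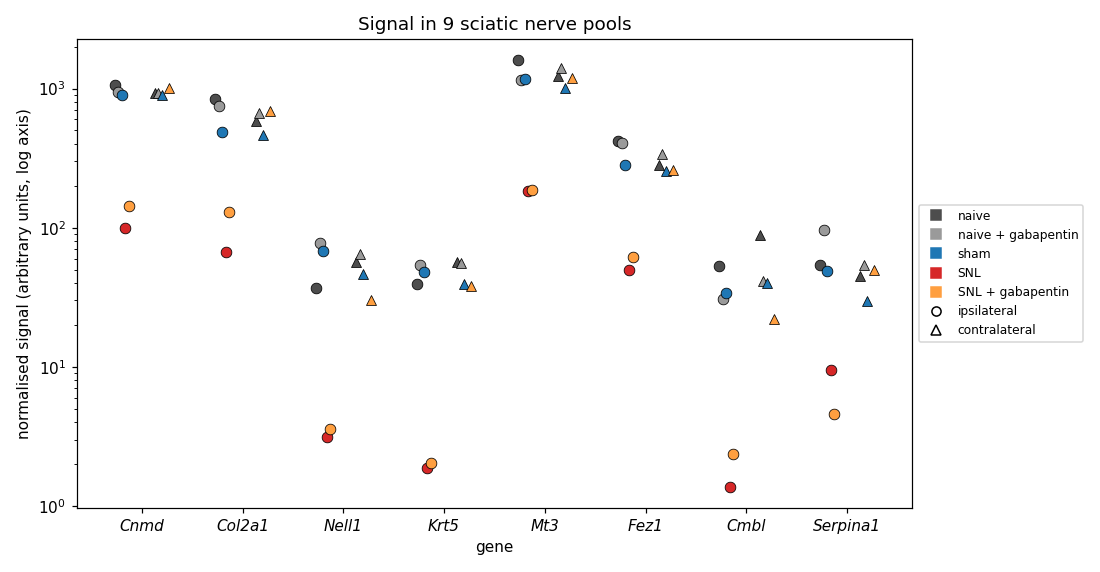
Normalised signal (arbitrary units, log axis) of the 8 genes in 9 sciatic nerve pools; circles are ipsilateral, triangles contralateral, and colour gives the group. The ipsilateral SNL and SNL with gabapentin circles lie below every other point of their gene. The contralateral SNL with gabapentin triangle lies within the range of the 6 unligated pools for Cnmd, Col2a1, Mt3, Fez1 and Serpina1. For Nell1, Krt5 and Cmbl that triangle lies below all 6.

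The opposite nerve of ligated rats was arrayed in the SNL with gabapentin group. There Cnmd read 1010, against 936, 933 and 893 in the contralateral nerve of naive, naive with gabapentin and sham rats, a log2 change of 0.15 (SE 0.23). Mt3 read 1200, against 1230, 1400 and 1010, a change of -0.01 (SE 0.28). Fez1 read 258, against 281, 340 and 255, a change of -0.17 (SE 0.27). These values lay within or beside the unligated range, although the ipsilateral nerve of the same group was far lower.

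Col2a1 read 694 in that pool, against 585, 663 and 461 (log2 change 0.33, SE 0.30), and Serpina1 read 49.3, against 45.2, 54.2 and 29.8 (0.20, SE 0.34). Krt5 read 38.2, against 56.3, 55.4 and 39.4, just below the lowest (-0.35, SE 0.29). Nell1 read 30, against 56.7, 65.2 and 46.5 (-0.79, SE 0.27), and Cmbl 22.1, against 89, 41.2 and 39.8 (-1.11, SE 0.45). Nell1 and Cmbl were the members furthest below the unligated pools of that side, with adjusted p of 0.976 and 0.999. By limma's test of 1 pool against 3, 0 of the 8 genes passed, with percent called of 0 over 16269 probe sets. At an unadjusted p under 0.05, 777 probe sets passed, among them those of Nell1 and Cmbl. The lone ligated pool is assumed to vary like the others. In simulated data of this design 9% of log2 changes of 1 and 96% of log2 changes of 2.5 were recovered. With the scaling as deposited, where the all-gene median lay 0.20 higher, 117 probe sets passed, 98.3% of them higher, and 0 were members. With median scaling that median lay 0.11 lower (shift -0.11) and 0 passed.

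Within the SNL with gabapentin group the signal in contralateral nerve was 7.03 times that in ipsilateral nerve for Cnmd, 6.40 times for Mt3, 5.39 times for Col2a1 and 4.21 times for Fez1. For Krt5, Serpina1, Cmbl and Nell1 the ipsilateral signal lay under the pseudocount, so no ratio is given. Each ratio comes from a pair of pools, has no replicate, and uses the ipsilateral values that chose the genes.

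Muscle genes, which mark muscle carried along with a nerve, differed among the nerve pools. The mean log2 value of 23 skeletal muscle markers was 8.86, 7.91 and 7.80 in the ipsilateral naive, naive with gabapentin and sham pools, 5.46 in SNL and 7.76 in SNL with gabapentin. In contralateral nerve it was 9.58, 7.64 and 7.50 without ligation and 8.24 in SNL with gabapentin. The SNL pool had the lowest muscle level, and that of the SNL with gabapentin ipsilateral pool lay inside the range of the 6 unligated nerve pools. With the muscle level as a covariate the differences ran from -2.16 (Cmbl) to -2.87 (Mt3), with a median of -2.56. Of the 21 muscle genes tested, 0 passed in ipsilateral nerve, and their median log2 change was -1.83. The covariate fit rests on few pools, with the lowest muscle level in a ligated pool, so it cannot separate muscle from ligation. The part of muscle in the lower signals of the 8 genes was not tested.

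RNA quality also varied, as read from the ratio of 3′ to 5′ Gapdh probe sets on array A, which rises as RNA degrades. It was 7.38, 1.6 and 3.8 in naive, naive with gabapentin and sham ipsilateral nerve, and 1.92 and 1.61 in the ligated pools. Naive and sham had the highest ratios and naive with gabapentin the lowest, next to the ligated pools. The part of RNA quality in the lower signals was not tested.

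**Figure D2:**
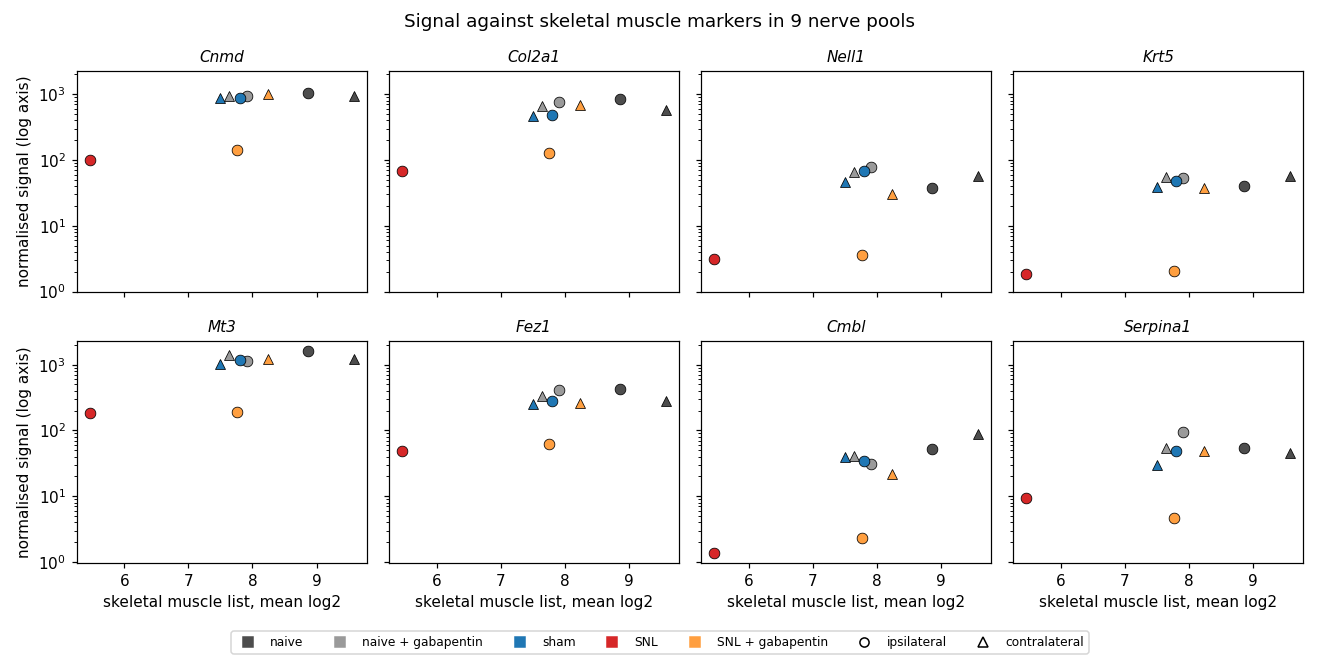
Normalised signal (log axis) of each gene in 9 nerve pools against the mean log2 value of 23 skeletal muscle markers in the same pool; circles are ipsilateral, triangles contralateral. The SNL with gabapentin circle sits at a muscle level of 7.76, between those of the sham pools (7.50 and 7.80). Its signal is far lower in every panel, in the contrast that chose the genes. The part of muscle was not tested.

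Genes known from the same tissues as the members were looked up in ipsilateral nerve, in lists drawn up with earlier results of these data known. Of 7 cartilage genes tested 3 fell: Col9a1, a collagen that decorates type II fibrils (log2 change -2.74, adjusted p = 0.00314), Mia (-1.62, adjusted p = 0.00953) and Cytl1 (-1.29, adjusted p = 0.0323), by limma. The cartilage-defining Acan, Matn1 and Chad did not pass the filter on low values, with mean signals of 3.99, 4.31 and 4.08 in unligated ipsilateral nerve. The median over the cartilage list was -0.31.

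Among 9 keratinocyte and epithelial genes tested 2 fell, Cdh1 (E-cadherin, -2.03, adjusted p = 0.0025) and Ppl (periplakin, -1.32, adjusted p = 0.0414), by limma. Krt14, the usual filament partner of Krt5, read 33.0 in ligated and 20.8 in unligated nerve (0.56, adjusted p = 0.358, limma), and Krt1 and Tp63 did not pass the filter. Of 2 metallothionein-related genes tested 0 passed, and Mt2A read 98.0 with and 83.8 without ligation. Of 8 liver and plasma protein genes tested 0 passed, and Alb did not pass the filter at 12.3 with and 12.5 without ligation.

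The astrocyte list, which holds genes that Mt3 accompanies in brain, had 2 of 7 lower, Aldoc (-2.05) and Ndrg2 (-1.15). Of 7 kinesin transport genes, Kif5c, a motor that Fez1 binds as an adaptor, was the 1 that fell (-1.13). Of 12 neuronal genes 3 rose, Nefm (3.05), Gap43 (1.62) and Map2 (1.42), 0 fell, and the median of the list was -0.19. Of 9 adipocyte genes 4 fell: Fabp4 (-1.88), Fasn (-1.53), Lpl (-1.50) and Adipoq (-1.24). Of 10 Schwann cell genes, Ngfr, a receptor raised in denervated Schwann cells, rose (3.66) and Prx, a protein of myelinating Schwann cells, fell (-1.70). Macrophage genes had 0 of 8 passing. Of 11 tendon and epineurium genes Thbs4 rose (1.17), of 6 perineurium genes Itgb4 fell (-0.78), of 10 endothelium genes Cldn5 fell (-1.44), and of 2 bone genes Spp1 fell (-0.97), each with no other call in its list. Summed signals of the adipocyte list were 4199 to 5853 in unligated and 2165 to 2552 in ligated ipsilateral nerve, and those of the Schwann cell list were 18780 to 21830 and 15110 to 15310. The part of these cell types in the lower signals of the 8 genes was not tested. Over all 15 lists 21 genes passed in ipsilateral nerve and 0 in contralateral nerve. The 21 became 1 with the muscle covariate, 0 without the SNL pool and 13 without the naive with gabapentin pool.

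In ganglia the members split. In the ipsilateral L5 DRG, whose axons run through a tied nerve, 4 genes fell and 1 rose, and in the ipsilateral L6 DRG 3 of these fell. Over all probe sets 8.89% were called lower and 6.76% higher in L5, and 4.22% and 4.37% in L6. Mt3 in L5 read 1350, 1110 and 1150 in naive, naive with gabapentin and sham, and 445 and 535 in SNL and SNL with gabapentin. The ligated mean was 490.4 ± 63.5 (SD, n = 2) and the unligated mean 1205 ± 129 (SD, n = 3), a log2 change of -1.28 (SE 0.13, adjusted p = 0.00191, limma). In L6, Mt3 read 1360, 1330 and 1070 against 300 and 434, a change of -1.79 (SE 0.20, adjusted p = 0.00299, limma). Neither ganglion had overlapping groups, and Mt3 in ligated ganglia stayed above its level in ligated nerve.

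Fez1 in L5 read 666, 780 and 799 without ligation and 288 and 314 with it, a log2 change of -1.30 (SE 0.12, adjusted p = 0.0014, limma). In L6 it read 812, 712 and 767 against 286 and 386, a change of -1.19 (SE 0.18, adjusted p = 0.00775, limma). Without the SNL pools the L6 call was lost (adjusted p = 0.0666, range over its alternatives 0.00756 to 0.589).

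Nell1 in L5 read 180, 117 and 111 without ligation, and 55.7 in SNL and 15.6 in SNL with gabapentin, a log2 change of -2.00 (SE 0.43, adjusted p = 0.0229, limma). In L6 it read 157, 95.3 and 123 against 52.2 and 26.9, a change of -1.54 (SE 0.29, adjusted p = 0.019, limma). The ligated pools were lower in both ganglia but spread widely. The L5 call was kept in 5 of 10 alternatives and lost when the naive, naive with gabapentin, sham or SNL with gabapentin pools were left out in turn (adjusted p 0.0512 to 0.0661). The L6 call was lost without the naive or the SNL with gabapentin pools (adjusted p = 0.0661 and 0.11).

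Cnmd in L5 read 353, 203 and 212 without ligation, and 71.3 and 93.2 with it, a log2 change of -1.55 (SE 0.25, adjusted p = 0.0088, limma). Without the SNL pool its adjusted p was 0.0645. In L6 it read 127, 129 and 127 against 52.9 in SNL and 133 in SNL with gabapentin, so the groups overlapped (-0.55, SE 0.32, adjusted p = 0.348, limma). Col2a1, whose level otherwise followed that of Cnmd across tissues, was not called in L5 (-0.24, SE 0.28) or L6 (0.00, SE 0.40).

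Serpina1 was the member that rose in L5. It read 91.8, 101 and 108 in naive, naive with gabapentin and sham, and 165 and 192 in SNL and SNL with gabapentin, a log2 change of 0.81 (SE 0.14, adjusted p = 0.00997, limma). Without the SNL with gabapentin pool its adjusted p was 0.0561. In L6 the same probe set read 130, 131 and 89 against 181 and 196 (0.68, SE 0.21, adjusted p = 0.0874, limma), with no overlap but not past the threshold. A weaker pair of probe sets for the gene, both named for the same deposited transcript, X16273cds_at and X16273cds_g_at, read at most 10.1 and 7.97 in the unligated L6 DRG and at least 46.5 and 30.1 in the ligated ones. In L6 they passed the filter on low values only through the 2 ligated pools, so a difference was fixed by that filter and their test is not used. In L5, X16273cds_at was above the filter in pools of both groups and did not pass (1.01, SE 0.51, adjusted p = 0.221, limma). There X16273cds_g_at did not pass the filter.

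In L5, 5 of the 8 member probe sets tested passed, against 15.6% of all 16724 tested. In L6, 3 passed of the 7 that were above the filter in both groups, against 8.59% of 16887 (5 of 9 with the Serpina1 pair). Krt5 did not pass the filter in either ganglion, and Cmbl did not pass the test (0.30, SE 0.21 in L5 and 0.83, SE 0.38 in L6). Scaling mattered for L6: with the scaling as deposited the L6 calls of Nell1, Mt3 and Fez1 were lost (adjusted p = 0.231, 0.105 and 0.589, limma), with their directions unchanged. Their log2 changes were then -2.07, -2.14 and -1.61, and calls over all probe sets in L6 went from 1451 to 85. That scaling shifted the median of all genes by -0.24 in L5 and -0.28 in L6, and the share of higher calls over all probe sets went from 43.2% to 15.2% in L5 and from 50.9% to 28.2% in L6. With median scaling the L5 share was 24.3%.

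Markers of other cells moved in these ganglia too. Macrophage genes were higher for 7 of 8 in both L5 and L6, with summed signals of 675.7 to 1155 without and 3232 to 3471 with ligation in L5, and 659.2 to 1030 and 3485 to 4747 in L6. Of the neuronal list 7 of 14 genes in L5 and 7 of 15 in L6 were lower and 1 was higher in each. Its summed signals were 25250 to 26780 without and 16540 to 18530 with ligation in L5. Of 7 kinesin transport genes 3 were lower in L5 and 1 in L6. Tendon and epineurium genes were higher for 5 of 12 in L5 and 4 of 12 in L6, and lower for 1 in each, with summed signals in L5 of 5139 to 6325 without and 8075 to 11740 with ligation. Skeletal muscle genes had 0 of 23 called in L5, with a median of 1.11 and summed signals of 656.9 to 4815 without and 3395 to 10370 with ligation. Of the liver list 1 of 6 was higher in L5 and 0 of 7 in L6. The part of these cells in the member changes was not tested.

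**Figure D3:**
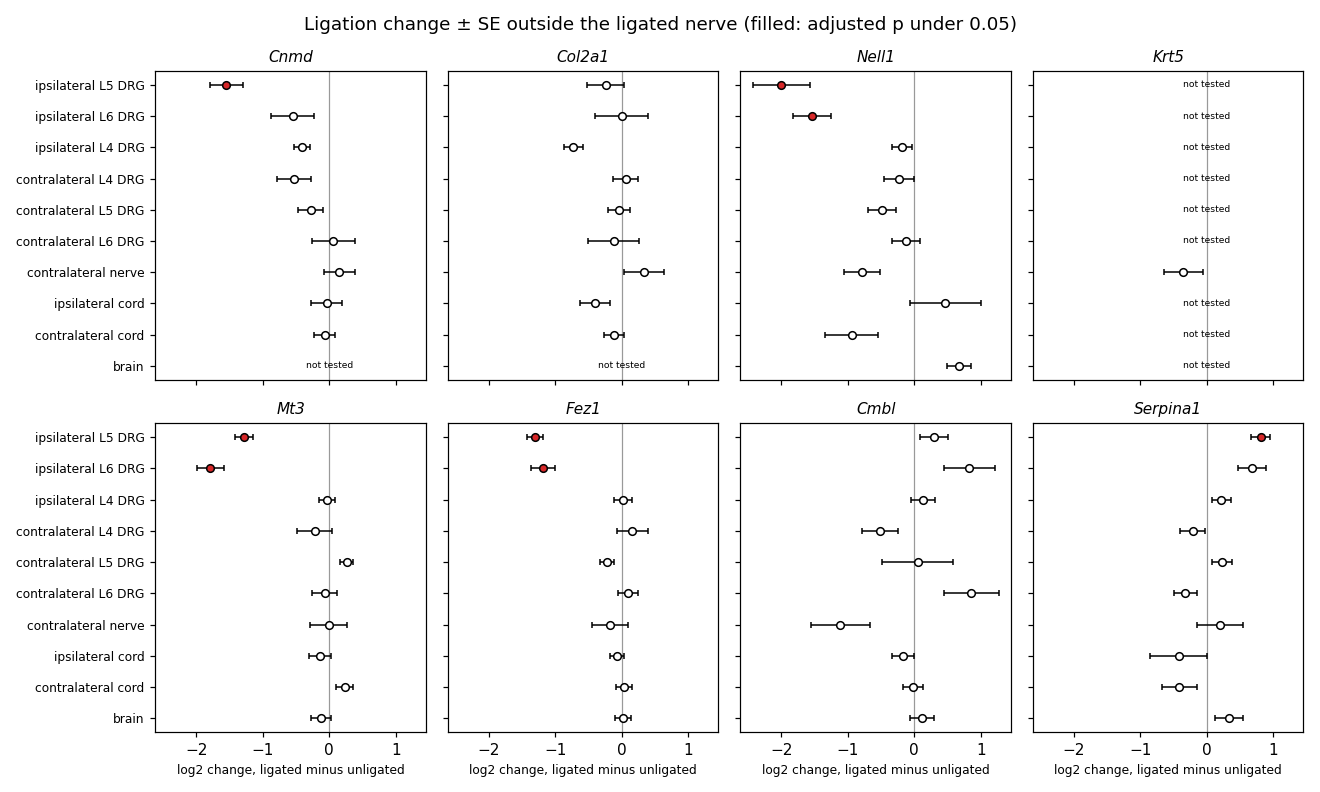
Log2 change, ligated minus unligated, with its SE for each gene in the 10 compartments other than the ligated nerve; filled points have an adjusted p under 0.05 (limma). Mt3, Fez1 and Nell1 are filled and negative in L5 and L6, Cnmd in L5, and Serpina1 is filled and positive in L5.

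Elsewhere no member passed. In the ipsilateral L4 DRG, whose spinal nerve was left intact, 0 of 7 were called (background 0.0418%); the changes of Mt3 and Fez1 were -0.04 (SE 0.12) and 0.02 (SE 0.13). Col2a1 there read below the unligated pools in both ligated ones (-0.73, SE 0.14, adjusted p = 0.0962, limma). On the opposite side 0 of 7 were called in each of L4 (background 0%), L5 (0.00612%) and L6 (0.0731%). In cord 0 of 7 were called on each side (background 0% on both), and in brain 0 of 5 (background 0%). These comparisons had few calls over all probe sets, and at an unadjusted p under 0.05 between 432 (brain) and 2398 (ipsilateral L4) probe sets passed. Nell1 in brain read 60.5, 61.1 and 42.8 without ligation and 89.7 and 94.9 with it, a log2 change of 0.67 (SE 0.18, unadjusted p = 0.00504 and adjusted p = 1, limma).

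Whether the ligation change differed between ganglia was tested on differences of log2 values of the same group, a comparison added after the changes had been seen. For L5 minus L4 on the ligated side, Mt3 gave -1.24 (SE 0.14, adjusted p = 0.0105, limma) and Fez1 -1.32 (SE 0.14, adjusted p = 0.00819, limma), 2 of 9 member probe sets against 3.08% of all. Cnmd (-1.14, adjusted p = 0.0553) and Nell1 (-1.80, adjusted p = 0.0612) did not pass by limma. Without the sham pools 0 were called. For L5 of the ligated minus the opposite side, Mt3 (-1.60, SE 0.16, adjusted p = 0.0293), Cnmd (-1.41, SE 0.19, adjusted p = 0.0434) and Fez1 (-1.05, SE 0.15, adjusted p = 0.0493) passed by limma, 3 of 8 against 0.712% of all. Gabapentin was unbalanced in that comparison. The 3 calls were lost with median scaling, without the filter on low values, and without the naive, SNL or SNL with gabapentin pools, and 1 was left without the sham pools.

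Across tissues the 8 genes were not uniformly non-neural. Unligated contralateral nerve was set against unligated contralateral L4 DRG, contralateral cord and brain, 3 pools against 3. The 3′ to 5′ Gapdh ratio on array A was 2.07, 2.91 and 3.2 in naive, naive with gabapentin and sham nerve. In the same order it was 1.31, 1.23 and 3.16 in L4 DRG, 1.26, 1.03 and 1.36 in cord and 1.38, 1.1 and 1.07 in brain. Against cord and brain, RNA quality thus went with tissue, and its part in the tissue differences was not tested. Cnmd averaged 920.8 ± 24.2 (SD, n = 3) in nerve, 236.3 ± 60.3 in L4 DRG, 126.1 ± 15.6 in cord and 12.97 ± 4.4 in brain. Col2a1 averaged 569.5 ± 102 in nerve, 110.7 ± 12.2 in L4 DRG, 118.1 ± 8.61 in cord and 5.84 ± 2.8 in brain, so DRG and cord did not differ beyond their spread. Krt5 averaged 50.4 ± 9.53 in nerve and between 3.84 and 5.55 in the other 3 tissues, under the pseudocount. Cnmd and Col2a1 were higher in nerve by 1.96 and 2.29 on the log2 scale against L4 DRG (adjusted p = 0.000106 and 3.33e-05, limma) and by 2.82 and 2.20 against cord (adjusted p = 5.67e-07 and 6.21e-06, limma). In brain neither gene was above the filter in any pool, and Krt5 was above it in nerve alone, so these differences were fixed by the filter and are given as levels only. All 3 nerve pools lay above all 3 pools of the other tissue in each case, which for Krt5 and for brain the filter fixed too. The share of all probe sets separated in this way was not counted. Of all probe sets, 38.4% (L4 DRG) to 49.9% (brain) were called in these comparisons in either direction.

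Fez1 was lower in nerve, at 292.3 ± 43.6 (SD, n = 3), than in L4 DRG (698 ± 168), brain (728.4 ± 62.7) and cord (1250 ± 76.4), by -1.22, -1.31 and -2.08 on the log2 scale (adjusted p = 0.00261, 9.53e-05 and 4.07e-06, limma). Mt3 averaged 1213 ± 196 in nerve, 1293 ± 182 in brain, 1332 ± 110 in cord and 1475 ± 530 in L4 DRG, which overlapped and did not pass. With median scaling Mt3 came out higher in nerve than in cord (0.64, adjusted p = 0.0127) and brain (0.77, adjusted p = 0.0156), by limma. Nell1 was lower in nerve (56.1 ± 9.37) than in L4 DRG (161.3 ± 28.9; -1.43, adjusted p = 0.000638, limma) and did not pass against cord (45.8 ± 5.81) or brain (54.8 ± 10.4). Serpina1 was lower in nerve (43.1 ± 12.4) than in L4 DRG (123.4 ± 10.8; -1.43, adjusted p = 0.00106, limma) and did not pass against cord or brain. Cmbl passed in none, with 56.7 ± 28 in nerve and means of 51.0 to 82 elsewhere. With the scaling as deposited, Cmbl (-1.52, adjusted p = 0.00038) and Serpina1 (-1.04, adjusted p = 0.00952) came out lower in nerve than in cord, by limma. Without the naive nerve pool, Cmbl came out lower than in cord (-0.94, adjusted p = 0.00115) and L4 DRG (-0.61, adjusted p = 0.0395), by limma.

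Counting only genes above the filter in both tissues, 5 of 7 were called against L4 DRG, 3 of 7 against cord and 1 of 5 against brain. Of all probe sets, 38.4% were called against L4 DRG (20.4% higher, 18% lower). Against cord 46.8% of all were called (24.2% and 22.6%), and against brain 49.9% (25.5% and 24.4%). Tissue differences are thus common, and 3 of 7 against cord and 1 of 5 against brain do not stand above the background. With the scaling as deposited the median of all genes shifted by -0.21 against L4 DRG, -0.61 against cord and -0.42 against brain, and the share of higher calls fell from 53.2% to 36.2%, from 51.7% to 15.3% and from 51.1% to 27.2%. The tissue calls of members above the filter in both tissues kept their direction and passed under each of the 12 alternatives tried. Calls of genes admitted through nerve alone are not read in this way. The signals of Mt3 and Fez1 in brain and cord go against calling the group non-neural, and Cnmd, Col2a1 and Krt5 were the members whose signals in nerve lay above those in each of the other tissues.

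**Figure D4:**
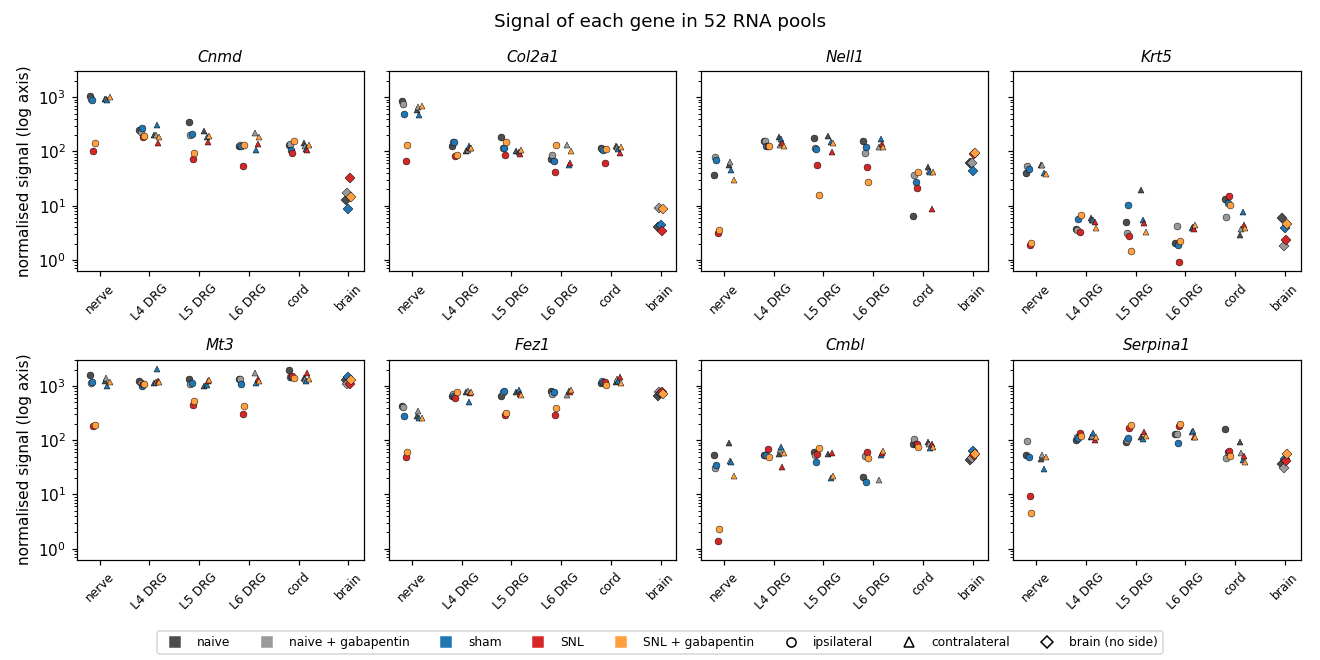
Normalised signal (log axis) of each gene in the 52 RNA pools by tissue; circles are ipsilateral, triangles contralateral, diamonds brain. Cnmd, Col2a1 and Krt5 are highest in unligated nerve. Without ligation, Mt3 overlaps across the tissues and Fez1 is highest in cord. Both Mt3 and Fez1 drop in the ligated nerve and the ligated L5 and L6 DRG.

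The order of tissues by unligated level over both sides differed between the genes. Cnmd ran from a median of 935 in nerve (893 to 1060, n = 6) through 242 in L4, 212 in L5, 129 in cord and 127 in L6 to 12.6 in brain. The ranges of L4, L5 and L6 overlapped, as did those of cord and L6. Col2a1 had a median of 624 in nerve and 4.38 in brain, both apart from the rest, and L4 (124), L5 (115), cord (113) and L6 (71.5) overlapped between. Krt5 had a median of 50.8 in nerve (39.4 to 56.3) and read at most 19.7 in the unligated pools of other tissues.

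Fez1 ran from 1210 in cord (1150 to 1340, n = 6) through 780 in L5, 767 in L6, 750 in brain and 693 in L4, whose ranges overlap, to 312 in nerve (255 to 422). Mt3 medians went from 1430 in cord through 1330 in L6, 1310 in brain, 1210 in nerve and 1170 in L4 to 1110 in L5, with overlapping ranges throughout. Nell1 had medians of 157, 150 and 123 in L4, L5 and L6, which overlapped, against 60.9 in nerve, 60.5 in brain and 39.1 in cord, which overlapped in turn. Serpina1 had medians of 131 in L6, 114 in L4, 106 in L5, 59.6 in cord, 51.4 in nerve and 35.8 in brain, and each neighbour in that order overlapped with the next. The same held for Cmbl, from 86.1 in cord through 54.7 in L4, 54.1 in L5, 46.8 in brain and 40.5 in nerve to 21.4 in L6. The naive and naive with gabapentin pools of both sides are unoperated, so sides there are labels only.

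Gene pairs within the group followed each other to different degrees, as a description over pools that share tissues, arrays and scaling. The 52 pools include the ipsilateral nerve pools by which the genes were chosen. Over 52 pools Pearson's r between Cnmd and Col2a1 was 0.95, and 0.91 over the 43 pools other than nerve. Mt3 and Fez1 gave 0.77 over all pools and 0.76 without nerve. Cnmd and Fez1 gave -0.25 over all pools. The genes most like each member over the 52 pools were Cntf and Akr1b1 for Cnmd (both r = 0.93, after Col2a1), Ndrg1 (0.97) and Cldn19 (0.96) for Col2a1, Maob (0.87) for Krt5, Rcan2 (0.94) for Fez1, Gstm7 (0.81) for Mt3, Rtn4rl1 (0.84) for Nell1, Fabp5 (0.85) for Serpina1 and Atp5mk (0.75) for Cmbl. Slc25a33 was among the nearest 3 for Mt3 (0.80), Fez1 (0.92) and Cmbl (0.73).

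Gabapentin made no detectable difference to the members in ipsilateral nerve, with ligation as a covariate. Of the 8 genes 0 passed, with percent called of 0 over 16896 probe sets and 466 at an unadjusted p under 0.05 (limma). The largest member difference was 0.57 for Col2a1 (SE 0.33, adjusted p = 1, limma), with gabapentin pools at 753 and 129 and the others at 839, 490 and 67.1.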

How the data were processed

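RNA of 52 pools (11 compartments of tissue and side) was measured on 156 Affymetrix rat U34 arrays. The deposited values are linear probe set intensity made with MAS5 by the authors, per the submitters' processing notes (version and scaling target: not given in the sources used here). Array medians ran from 8.1 to 62.4, so arrays were quantile normalised: within a set and compartment for ligation tests, over all 52 arrays of a set for printed signals and tissue tests. Values were log2(signal + pseudocount), with pseudocounts of 5.9 (A), 4.6 (B) and 6.2 (C), the 20th percentile, which understates changes of weak genes. Probe sets above the 40th percentile of their array in at least 2 pools were tested, two-sided, with limma 3.58.1 in R 4.3.3 (lmFit, eBayes with trend), adjusted by Benjamini-Hochberg over all of them at 0.05. The test of a member that passed this filter through 1 group alone is not read. Of the 26379 probe sets, 177 are controls, 18178 had 1 gene symbol, 391 had several and 7633 had none, and Entrez identifiers served to update 18122. List genes are represented by their brightest probe set. Named list genes in ipsilateral nerve are those past the threshold, with some defining markers. The number of pools limits the precision, and arrays give no depth. The script was tested on simulated data: for 16724 probe sets in the L5 design it recovered 73% of log2 changes of 1 and 98% of log2 changes of 2.5. The members and the 15 lists were chosen with earlier results of these data known. The differences between ganglia, the list counts in ganglia and the promoter motifs were added after the data were seen. Alternatives were the deposited and median scaling, other pseudocounts, no filter, the muscle list as covariate and leaving out each group.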

Additional observations from a re-analysis of the deposited data

Results flagged for a closer look

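The ligation change of 2 genes differed between the L5 and L4 DRG of the ligated side (limma, difference tested): Mt3 by -1.24 and Fez1 by -1.32 on the log2 scale. Between the L5 DRG of the ligated and the opposite side it differed for Cnmd by -1.41, Mt3 by -1.60 and Fez1 by -1.05. Over all probe sets 3.08% passed between L5 and L4, and 0.712% between the sides. The calls between L5 and L4 were lost without the sham pools. Those between the sides were lost with median scaling, without the filter on low values, and without the naive, SNL or SNL with gabapentin pools. Both comparisons were added after the data were seen.

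Several members had every ligated pool above every unligated pool in at least 1 compartment and below in another. These differences in direction were not tested, and the share of all probe sets with such a pattern was not counted. With so few pools on each side, such separation can arise from the order of the pools alone. Nell1 was above in brain (0.67) and below in both ligated ganglia, the contralateral L5 DRG (-0.48) and ligated nerve. Mt3 was above in the contralateral L5 DRG (0.26), and Cmbl in the contralateral L6 DRG (0.86), while each was below in ligated nerve. Serpina1 was above in the ipsilateral L4 (0.22), L5 (0.81) and L6 DRG (0.68) and the contralateral L5 DRG (0.23). It was below in the contralateral L6 DRG (-0.32) and ligated nerve. In contralateral nerve, with 1 ligated pool, Cnmd (0.15) and Col2a1 (0.33) were above, while both were below in ligated nerve. Nell1 (-0.79), Krt5 (-0.35) and Cmbl (-1.11) were below in that contralateral pool. The contrast in ligated nerve is the one that chose the genes.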

How the results depend on the processing

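The labels give no replicate numbers, so no replicate block exists. With treatment as a block, pairing pools of the same group, the tissue comparisons gave 6, 4 and 4 member calls against L4 DRG, cord and brain, as without it. These counts include genes that passed the filter through nerve alone, whose tests are not read. The ganglion differences were formed within groups. Member calls in ganglia, cord and brain numbered 10 (2 of them the Serpina1 pair of probe sets in L6), and 5 with the deposited scaling; leaving out each group gave 6 to 10. List calls in ipsilateral nerve numbered 21, 1 with the muscle covariate and 0 to 24 when each pool was left out. The median log2 difference of the 8 genes in ligated nerve was -2.65, -3.20 with a pseudocount of 1, -1.66 with a pseudocount of 32 and -2.74 to -2.52 when each pool was left out. For L5 minus L4, leaving out each group gave 0 to 3 member calls. For the difference between sides in L5, median scaling and no filter each gave 0, and leaving out each group gave 0 to 1. Mt3 reversed its direction with median scaling, to 0.64 against cord and 0.77 against brain. Signals near the array floor limit the differences of Nell1, Krt5, Cmbl and Serpina1 in ligated nerve.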
